A study of Mus musculus with 9 samples.

Results

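Desmosomes are the spot-like junctions that tie the intermediate filaments of neighbouring epithelial cells together. Their transmembrane parts are cadherins of the desmoglein and desmocollin families, whose outer domains bind across the gap between cells. Their inner tails hold plakoglobin and plakophilins, and desmoplakin links that plaque to keratin. In the mammary gland, desmosomes join luminal cells to each other and to the basal, myoepithelial layer.

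The 9 genes described here are the desmogleins Dsg2 and Dsg3, the desmocollins Dsc2 and Dsc3, the plaque proteins Dsp, Jup, Pkp1 and Pkp3, and the membrane protein Perp. They were picked as named desmosome genes and found by gene symbol among the 54281 genes of the files, and all 9 were among the 23834 genes with enough reads to be tested. RNA came from Comma-1D, a mouse mammary epithelial cell line, sorted on the surface proteins Sca-1 and EpCAM into 3 populations. Each population was sequenced in 3 arms with 1 library per population and arm, 9 libraries in all. The bi population had high Sca-1 and high EpCAM, the L population low Sca-1 and high EpCAM, and the B population high Sca-1 and low EpCAM. The arms were cells transduced with an activated MYC oncogene, cells transduced with an activated Her2 oncogene, and control cells. The labels give no vector for the control cells, no promoter or species for either oncogene, and no separate cultures. A p-value here therefore weighs a difference against the spread left between libraries after population and arm. That spread holds library noise, which may be technical, together with any difference of arm effects between populations.

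The libraries held 46.9 M to 98.9 M estimated reads assigned to genes (M for 1e6). Myc was higher in the MYC library than in the control library of each population, at 179 against 87.8 CPM (counts per 1e6 reads of the library) in bi, 235 against 85 CPM in L and 266 against 119 CPM in B. Erbb2, the mouse gene for Her2, was higher in the Her2 library of each population, at 252 against 78.1 CPM in bi, 587 against 90.7 CPM in L and 191 against 55.6 CPM in B. The summed level of 7 luminal markers was 619 to 646 CPM in bi, 1022 to 2556 CPM in L and 2.51 to 6.84 CPM in B. Epcam, which the sort selected on, is among them, so this sum is no separate check of the sort. In bi most of the sum came from Epcam and Cdh1, at means of 290 and 258 CPM. The luminal keratins were lower there, with Krt18, Krt7 and Krt8 at means of 64.7, 14.6 and 1.56 CPM. The summed level of 7 basal and myoepithelial markers was 3608 to 4987 CPM in bi, 1553 to 3723 CPM in L and 1791 to 3956 CPM in B. Most of that sum came from Krt5, Krt14 and Trp63. The other markers of the list were lower, with Myh11, Cnn1 and Tagln at most 0.233, 2.37 and 32.9 CPM in any library. Acta2 ranged from 12.3 to 99.6 CPM in bi, 1.2 to 13.9 CPM in L and 15.6 to 273 CPM in B. Summed markers of fibroblasts reached 25.7 to 37.4 CPM in bi, 17.1 to 22.7 CPM in L and 86.3 to 139 CPM in B, while those of immune cells, endothelial cells and adipocytes stayed at or below 1.85, 5.24 and 0.816 CPM.

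The desmosome genes split by population into a group of 3 cadherins that B cells almost lacked and a group of 6 genes that all 3 populations expressed. Dsg2, Dsg3 and Dsc2 were below 10 CPM in all 3 B libraries. Dsc3, Dsp, Jup, Pkp1, Pkp3 and Perp were above 10 CPM in each of the 9 libraries. Levels are given as CPM of each library's total, which can be compared for 1 gene across libraries but not between genes of different length.

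**Figure D1:**
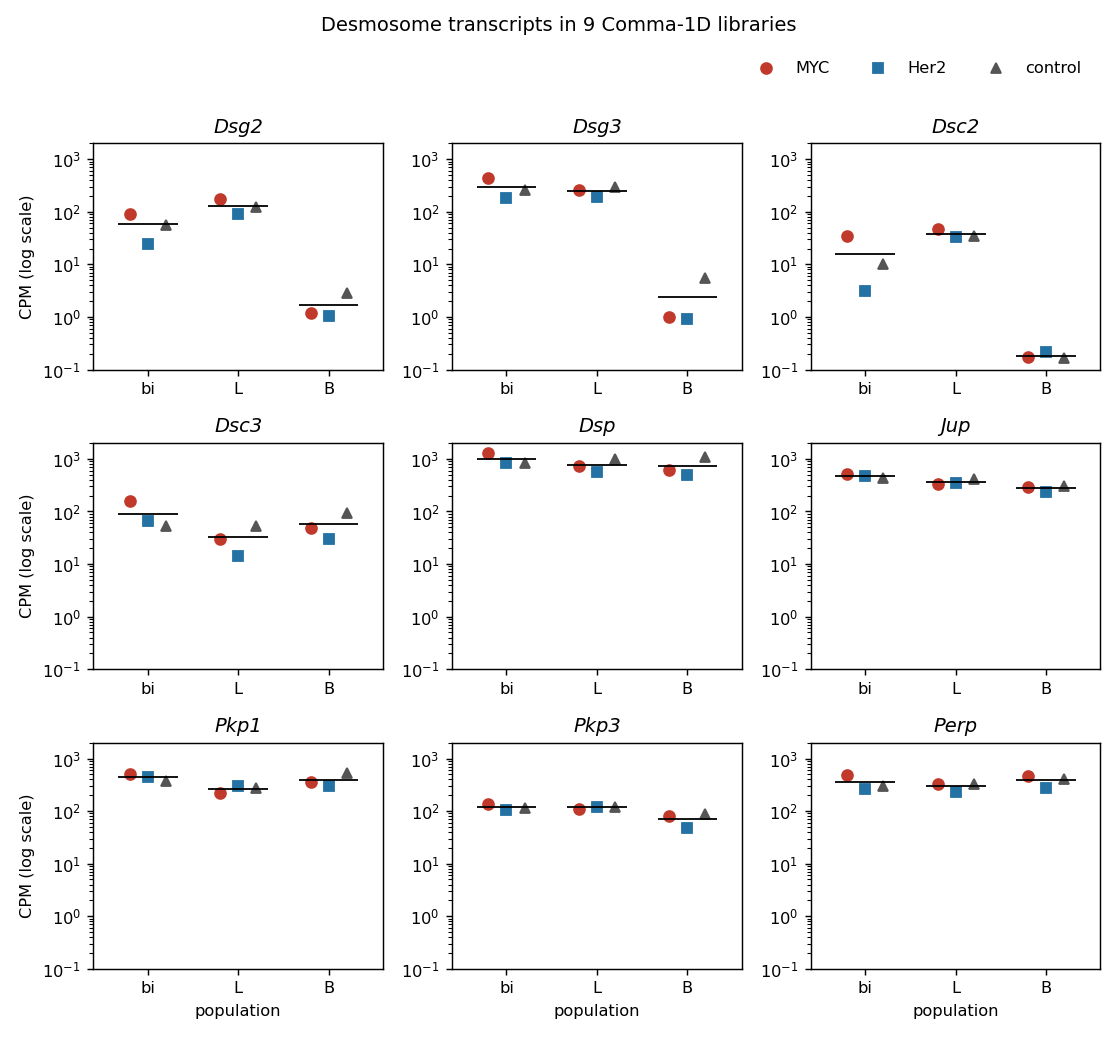
Level of each of the 9 desmosome genes in every library, in CPM on a log axis, with bi left, L in the middle and B right. Points are single libraries of the MYC (circle), Her2 (square) and control (triangle) arms, and horizontal lines are the means of 3 libraries. Dsg2, Dsg3 and Dsc2 lie at or below 5.43 CPM in B, while the other 6 genes stay within 14.1 to 1277 CPM throughout.

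Dsg2, the desmoglein found in nearly all desmosome-bearing tissues, had 90.5, 24.7 and 57.3 CPM in the MYC, Her2 and control libraries of bi. It had 172, 92 and 126 CPM in the same arms of L. It had 1.2, 1.06 and 2.82 CPM in the same arms of B. All 6 libraries of the EpCAM-high populations lay far above all 3 B libraries, and the 3 L libraries lay above the 3 bi libraries. Dsg2 rose 77.7-fold in L against B (log2 fold change 6.28 ± 0.43 SE, adjusted p = 1.27e-05). It rose 32.7-fold in bi against B (log2 5.03 ± 0.41 SE, adjusted p = 5.82e-05). Adjusted p-values are from edgeR's quasi-likelihood test over all 23834 genes, in a fit of population and arm to all 9 libraries, with Benjamini-Hochberg adjustment and a threshold of 0.05.

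Dsg3, the desmoglein of basal keratinocytes and the antigen of pemphigus vulgaris, had 445, 182 and 262 CPM in the MYC, Her2 and control libraries of bi. In L it had 262, 191 and 302 CPM, and in B it had 1, 0.91 and 5.43 CPM. The bi and L libraries overlapped and all lay above B, where the control library was the highest of the 3. The change was 123-fold in L against B (log2 6.95 ± 0.59 SE, adjusted p = 4.45e-05) and 148-fold in bi against B (log2 7.21 ± 0.60 SE, adjusted p = 7.31e-05).

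Dsc2, the desmocollin of simple epithelia and heart, had 34.7, 3.13 and 10.3 CPM in the MYC, Her2 and control libraries of bi. It had 47.2, 33.2 and 35 CPM in L, and 0.171, 0.213 and 0.167 CPM in B. The bi libraries spread widely, with bi MYC inside the range of L and bi Her2 well below it. In B these levels were 8, 11 and 9 reads, whose exact Poisson intervals of 0.0736 to 0.336, 0.106 to 0.381 and 0.0762 to 0.316 CPM cover counting error only. Dsc2 rose in L against B (log2 7.74 ± 0.75 SE, adjusted p = 9.67e-05) and in bi against B (log2 6.07 ± 0.73 SE, adjusted p = 0.000676).

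These 3 cadherins were the members called higher in L than in B, 3 of 9 where 20.8% of all genes tested were called, 11.5% higher and 9.26% lower. In bi against B, 4 of 9 members were called, all higher, where 13% of all genes were called, 7.88% higher and 5.11% lower. Ranges of CPM lay wholly above B for 5 of 9 members in L, where 17.6% of all genes did so, and for 5 of 9 in bi, where 13.4% did. Jup was among those in L, though its L and B ranges overlapped on CPM scaled by TMM, the scaling used in the tests. Both comparisons use the same B libraries. The median log2 fold change of the 9 members was 0.39 in L against B, beside 0.04 over all genes, and 0.80 in bi against B, beside 0.03 over all genes. Since each library pools many cells, fewer cells of a type and less RNA per cell cannot be told apart.

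A small signal of these 3 cadherins remained in B. Dsg2 in B came to 0.698%, 1.16% and 2.25% of its L level in the MYC, Her2 and control arms. Dsg3 came to 0.383%, 0.477% and 1.8% in the same arms, and Dsc2 to 0.361%, 0.642% and 0.475%. Epcam, which the sort selected on, came to 0.0453%, 0.0563% and 0.191%. Cdh1, the E-cadherin gene of adherens junctions, came to 0.104%, 0.0834% and 0.567%. The transcription factor gene Grhl2 kept 0.958%, 1.9% and 1.41%, and the keratin gene Krt18 0.363%, 0.563% and 1.83%. The shares of the 3 cadherins thus lay among those of these other genes low in B, except in the control arm for Dsg2. There its 2.25% was above all of them. The B control library had the highest such share for Dsg2, Dsg3, Epcam, Cdh1 and Krt18, and the part of admixed EpCAM-high cells in this was not tested.

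**Figure D2:**
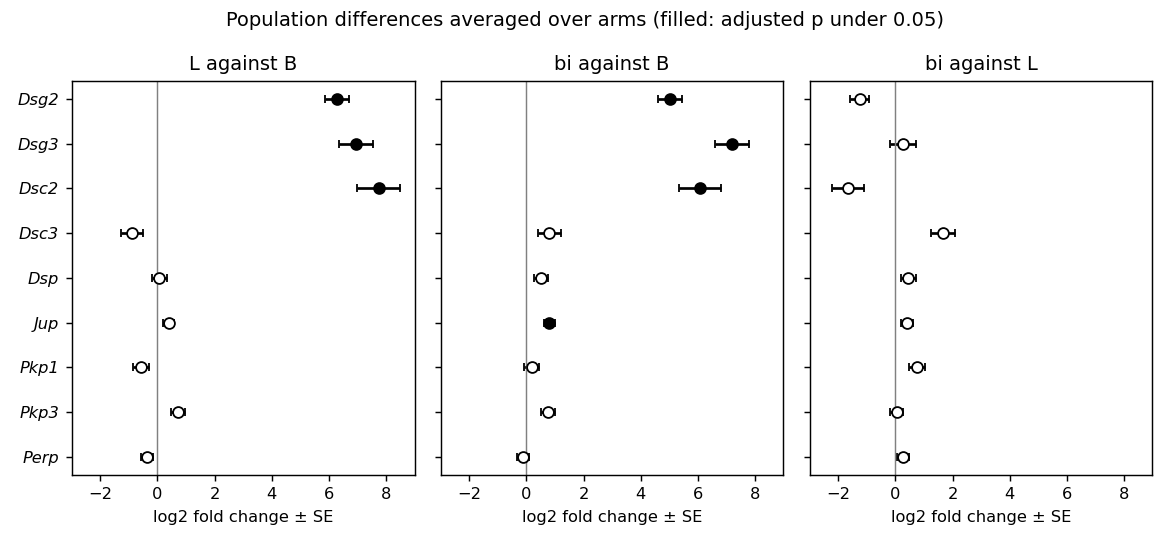
Log2 fold changes between populations, averaged over the 3 arms, with standard errors as bars, for L against B, bi against B and bi against L. Filled points passed the adjusted p threshold of 0.05. Dsg2, Dsg3 and Dsc2 stand between 5.03 and 7.74 in both comparisons with B, and every other member lies between -0.89 and 0.80 there.

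Dsc3, the desmocollin of basal layers, was the one cadherin of the 4 whose B libraries overlapped those of the other populations. It had 156, 64.8 and 53.1 CPM in the MYC, Her2 and control libraries of bi, and 30.2, 14.1 and 52.5 CPM in L. In B it had 48.8, 30.3 and 92.9 CPM. Every bi library lay above every L library. Neither comparison with B passed the test (L against B, log2 -0.89 ± 0.40 SE, adjusted p = 0.156; bi against B, log2 0.80 ± 0.41 SE, adjusted p = 0.255). Without the control library of bi, Dsc3 was called lower in L than in B (log2 -0.90, adjusted p = 0.0117). It was then also called higher in bi than in B (log2 1.37, adjusted p = 0.00636). Without the whole control arm both were called likewise (log2 -0.95 and 1.34, adjusted p = 0.0308 and 0.0114). In L against B the log2 ratios of single libraries were alike, at -0.97 in MYC, -0.94 in Her2 and -0.79 in control. That estimate barely moved without the bi control library, which is in neither population compared. In bi against B the ratios were positive in MYC and Her2 and -0.67 in control, so this estimate did depend on the control arm. L against B was also called with no filter on low counts (adjusted p = 0.0417).

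Dsc3 and Dsc2 are neighbours in the desmosomal cadherin cluster on chromosome 18 of GRCm38 (mm10), where positions are from GENCODE M21. The cluster spans 18:19960930-20604521, a stretch of 644 kb that holds 11 annotated genes, 9 of them protein-coding, in the order Dsc3, Dsc2, Dsc1, Dsg1c, Dsg1a, Dsg1b, Dsg4, Dsg3 and Dsg2. The desmocollins are on the minus strand and the desmogleins on the plus strand. Dsc3 (18:19960930-20002351) and Dsc2 (18:20030633-20059554) are 28.3 kb apart, and Dsg3 (18:20510274-20547459) and Dsg2 (18:20558074-20604521) are 10.6 kb apart. Dsg3 and Dsg2 thus lay at one end of the cluster and Dsc2 near the other, with Dsc3 as the outermost gene there.

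The desmogleins in the middle of the cluster were low in all libraries. Dsg1b, the highest of them, had 19.4, 3.58 and 5.76 CPM in the MYC, Her2 and control libraries of bi, 1.58, 2.92 and 5.52 CPM in L, and 0.0712, 0.0196 and 0.182 CPM in B. Every B library lay below every library of the other populations. Dsg1a, Dsg1b, Dsg1c and Dsg4 all passed the test in L against B (adjusted p = 0.00635, 0.00217, 0.00393 and 0.0184) and in bi against B (adjusted p = 0.00228, 0.00138, 0.0114 and 0.0301). Of all genes tested, 20.8% and 13% were called in these comparisons. The B libraries alone held too few reads for the read filter, so these genes were tested because of bi and L. Their calls are thus no separate support for a low level in B. The call of Dsg4 was lost in 3 and 6 of 16 alternative fits of these comparisons. Dsg1a, Dsg1c and Dsg4 were each at 0 in the MYC and Her2 libraries of B, with 1 or 2 reads in the control library, so the size of their fold is not given. Dsg1a, Dsg1b and Dsg1c are near-identical copies, and the way the authors' counting shared reads among them is uncertain. Dsc1, at most 0.412 CPM, had too few reads to be tested.

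**Figure D3:**
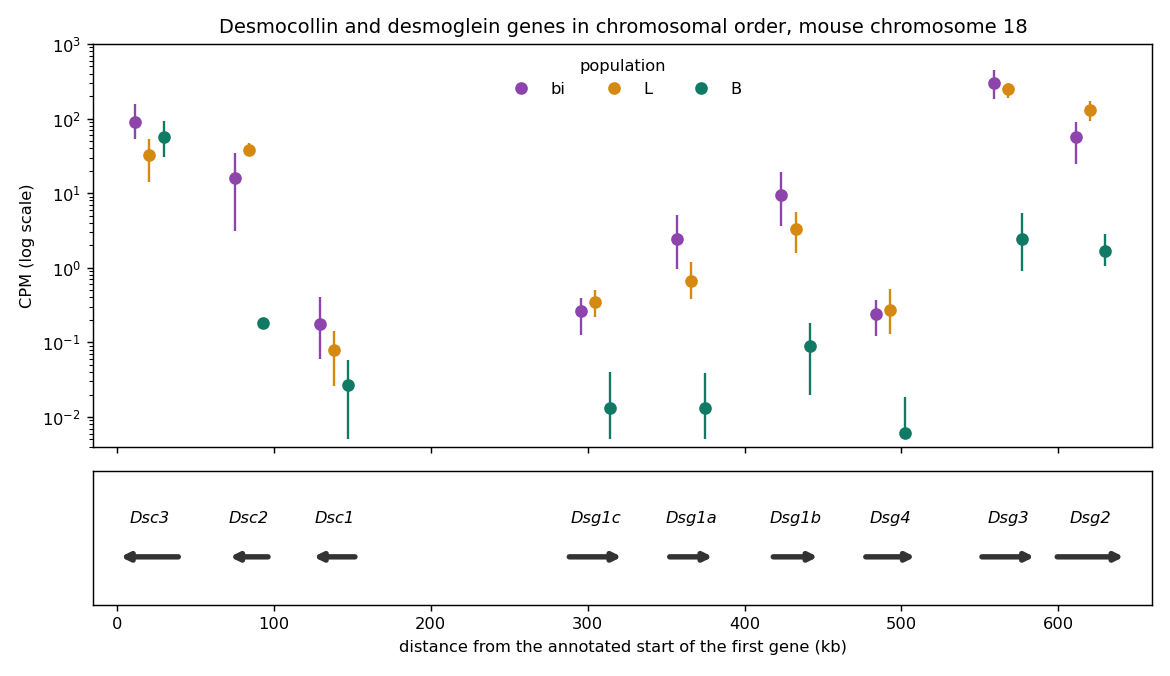
Mean CPM (points, log axis) and range over 3 libraries (lines) of the desmocollin and desmoglein genes of chromosome 18, for bi, L and B from left to right at each gene, above a map of the genes drawn as arrows in the direction of transcription, by distance in kb from the first gene's start. Lines that reach the low end include libraries at 0 CPM, drawn at the edge of the log axis. B lies below bi and L at every gene but Dsc3, where B averaged 57.3 CPM beside 91.2 CPM in bi and 32.3 CPM in L.

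Summed over all 9 desmosomal cadherin genes in TPM (transcripts per 1e6, a unit that allows for gene length), the MYC, Her2 and control libraries held 125, 48.5 and 70.9 TPM in bi. They held 86.2, 59.2 and 95.5 TPM in L, and 9.71, 6.88 and 23 TPM in B. Every B library was below every other library. Dsc3 made up 95.5%, 93.7% and 92.9% of that sum in the MYC, Her2 and control libraries of B. It made up 24.8%, 29% and 17.2% in bi, and 6.93%, 5.34% and 12.6% in L. In B the desmocollin side was thus almost all Dsc3 and the desmoglein side was nearly empty, at 0.396, 0.372 and 1.59 TPM for all desmogleins against 86.5, 33.7 and 56.3 TPM in bi and 70.4, 48.7 and 75.5 TPM in L for the same arms.

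The bi and L populations also differed in which desmocollin they held. Dsc3 was 80.9%, 95.1% and 83.2% of all desmocollin TPM in the MYC, Her2 and control libraries of bi, and 37.9%, 30.2% and 59.7% in L. The shares did not overlap. Dsg3 was 74.6%, 84% and 75.1% of all desmoglein TPM in bi and 53.8%, 60.1% and 64.1% in L, again with no overlap. On CPM per longest annotated transcript, an alternative added after the data were seen, the Dsc3 shares were 79.3%, 94.6% and 81.6% in bi and 35.7%, 27% and 56.5% in L, again apart.

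**Figure D4:**
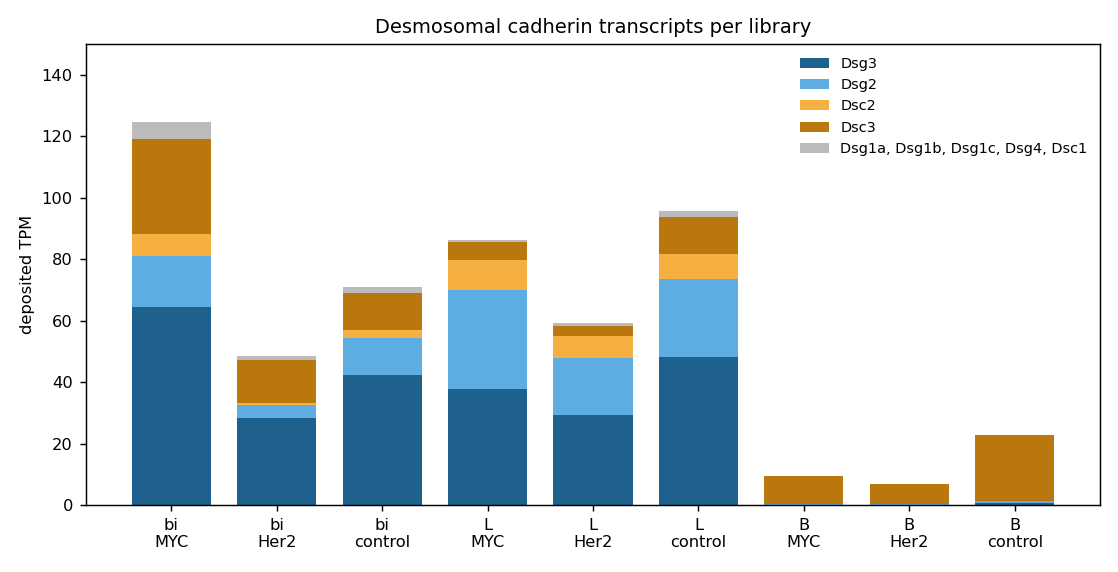
Stacked TPM of the desmosomal cadherins in each library, as the authors deposited them, with bi left, L in the middle and B right, and the arms MYC, Her2 and control within each. Colours mark Dsg3, Dsg2, Dsc2, Dsc3 and the 5 remaining genes. The B bars reach 9.71, 6.88 and 23 TPM and are almost wholly Dsc3.

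The 4 plaque genes were expressed in all 3 populations, and of their comparisons with B that of Jup in bi alone passed the test. Dsp, desmoplakin, the link from the plaque to keratin filaments (13:38151294-38198577, plus strand), had 1277, 845 and 836 CPM in the MYC, Her2 and control libraries of bi. It had 721, 570 and 981 CPM in L and 626, 492 and 1076 CPM in B. The 3 populations overlapped, and the B control library was the second highest of all 9. The log2 fold change was 0.06 ± 0.26 (SE, adjusted p = 0.905) in L against B and 0.51 ± 0.26 (SE, adjusted p = 0.252) in bi against B.

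Jup, plakoglobin, which binds the tails of desmosomal cadherins and can also sit in adherens junctions (11:100368958-100397763, minus strand), had 518, 470 and 434 CPM in bi, 334, 346 and 410 CPM in L, and 290, 233 and 301 CPM in B for the MYC, Her2 and control arms. On CPM the 3 populations did not overlap, with bi highest and B lowest. On CPM scaled by TMM, the scaling used in the tests, L MYC at 293 lay below B MYC at 311, so L and B overlapped. Jup rose 1.74-fold in bi against B (log2 0.80 ± 0.20 SE, adjusted p = 0.0285), which makes it the fourth member called in that comparison. The adjusted p of Jup was 0.0561 to 0.139 when any 1 of the 6 bi and B libraries was left out. In L against B its log2 fold change was 0.39 ± 0.20 (SE, adjusted p = 0.222).

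Of the plakophilins, armadillo proteins that cluster desmoplakin at the plaque, Pkp1 (1:135871395-135919207, minus strand) had 517, 440 and 367 CPM in bi, 222, 297 and 280 CPM in L, and 363, 296 and 534 CPM in B for the MYC, Her2 and control arms. Pkp1 was lower in each L library than in each bi library and overlapped between L and B. Pkp3 (7:141078218-141090510, plus strand) had 139, 107 and 114 CPM in bi, 111, 120 and 120 CPM in L, and 80.1, 48 and 88.2 CPM in B. All 6 bi and L libraries lay above all 3 B libraries for Pkp3. Pkp3 missed the threshold in L against B (log2 0.73 ± 0.24 SE, adjusted p = 0.0636) and in bi against B (log2 0.76 ± 0.24 SE, adjusted p = 0.0701), and it was called in 5 alternative fits of each comparison, with adjusted p = 0.0211 to 0.0407 in L against B and 0.0166 to 0.0445 in bi against B. Pkp1 gave log2 -0.57 ± 0.27 (SE, adjusted p = 0.188) in L against B and 0.18 ± 0.27 (SE, adjusted p = 0.749) in bi against B.

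Perp, a tetraspan protein of desmosomes and a target of p53 and p63 (10:18845020-18857073, plus strand), had 485, 267 and 303 CPM in the MYC, Her2 and control libraries of bi. In L it had 324, 230 and 332 CPM, and in B 471, 274 and 404 CPM. The populations overlapped, and within each of them the Her2 library was the lowest. Perp gave log2 -0.37 ± 0.21 (SE, adjusted p = 0.26) in L against B and -0.12 ± 0.21 (SE, adjusted p = 0.782) in bi against B.

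Per length, Perp and Jup were the highest members in every population by mean TPM, with 181 ± 50.6 and 172 ± 6.38 TPM in bi, 151 ± 33.1 and 132 ± 20.6 TPM in L, and 202 ± 50.5 and 104 ± 19.2 TPM in B (SD, n = 3 each). Perp and Jup did not differ beyond their spread in bi and L. Dsp and Pkp1 came next, at 106 ± 21 and 93.3 ± 11 TPM in bi, 84.7 ± 28.3 and 55.3 ± 9.56 TPM in L, and 81.5 ± 39.6 and 87.1 ± 33.7 TPM in B, and their values were within an SD of each other in bi and B. The 4 cadherins were last in all 3 populations, although Dsg3 came ahead of Pkp3 in bi and L on CPM per longest annotated transcript. Jup TPM was 10.5, 12.4 and 5.38 times the summed cadherin TPM in the MYC, Her2 and control libraries of B, against 1.44, 3.48 and 2.37 times in bi and 1.41, 2 and 1.63 times in L. The deposited lengths of Jup (384 to 389 bases) and Pkp3 (271 to 375 bases) were below their shortest annotated transcripts of 441 and 412 bases, and on CPM per deposited length Jup instead of Perp came first in each population.

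Population accounted for most of the variation of the cadherins that B lacked and for less of the others. Its share of the variance of log2 CPM over the 9 libraries was 95.4% for Dsg3, 95.2% for Dsg2, 93.1% for Dsc2 and 77.6% for Jup, and it was 60.4% for Pkp3, 55.7% for Pkp1, 46.7% for Dsc3, 26.6% for Dsp and 18.8% for Perp. The median over all genes tested was 33.5% for population and 20.6% for arm. Perp was the member whose arm share was largest, at 58.8%.

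No member was called in bi against L, where 0.751% of all genes were called. At an unadjusted p under 0.05, 4 of 9 members passed, beside 8.65% of all genes, and DESeq2 called 2 members, where it called 3.08% of all genes. Those 2 were Dsc3, with every bi library above every L library (log2 1.68 ± 0.42 SE, adjusted p = 0.14 by edgeR and 0.000707 by DESeq2), and Dsg2, with every bi library below every L library (log2 -1.25 ± 0.34 SE, adjusted p = 0.186 by edgeR and 0.0118 by DESeq2). The Dsc3 difference between bi and L lay in the oncogene arms, with log2 ratios of single libraries of 2.62 in MYC, 1.94 in Her2 and 0.12 in control. Without the control library of bi, edgeR called Dsc3 (log2 2.27, adjusted p = 0.00862), and without the MYC arm it called Dsg2 (log2 -1.62, adjusted p = 0.0459). Dsc2 had a log2 fold change of -1.67 ± 0.56 (SE, adjusted p = 0.324) and was called without the MYC arm (log2 -2.57, adjusted p = 0.0377) and with no filter (adjusted p = 0.0143).

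No member was called in MYC against control by edgeR, where 0.365% of all genes were called, nor by DESeq2, and 0 of 9 had an unadjusted p under 0.05, beside 13.9% of all genes. The largest estimate was that of Dsc2, at 1.05 ± 0.58 (log2, SE, adjusted p = 0.481), and the median over members was -0.02 beside 0.03 over all genes. The single-library ratios differed by population, without a test because each population and arm has 1 library. In bi, all 9 members were higher in the MYC library than in the control library, with a median log2 ratio of 0.66, led by Dsc2 at 1.74 and Dsc3 at 1.55. In L, 7 of 9 were lower in the MYC library, with a median of -0.36, and in B 5 of 9 were lower, with a median of -0.40 and the lowest ratios at Dsg3 with -2.24 and Dsg2 with -1.06. Over all genes tested the median ratios were 0.06 in bi, 0.04 in L and -0.03 in B. The bi MYC library was the highest of all 9 for 6 members (Dsg3, Dsc3, Dsp, Jup, Pkp3 and Perp), and L MYC was the highest for Dsg2 and Dsc2. The shares of all genes with these directions or these highest libraries were not counted.

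No member was called in Her2 against control by edgeR, where 0.021% of all genes were called, nor by DESeq2. All 9 estimates were below 0, where 51.4% of all genes were below 0, with a median of -0.43 beside -0.01 over all genes. At an unadjusted p under 0.05, 4 of 9 members passed, beside 8.8% of all genes. They were Dsg3 (log2 -1.26 ± 0.48 SE, adjusted p = 0.458), Dsc3 (-1.21 ± 0.41, adjusted p = 0.359), Dsg2 (-0.98 ± 0.35, adjusted p = 0.416) and Dsp (-0.65 ± 0.26, adjusted p = 0.49). The single-library ratios of Dsc3 were -1.71 in L and -1.57 in B, with 0.11 in bi, and without the control library of bi Dsc3 was called (log2 -1.75, adjusted p = 0.0338). Dsg2 and Dsc2 showed their lowest Her2 ratios in bi, at -1.40 and -1.90. The B Her2 library was the lowest of all 9 for 5 members (Dsg2, Dsg3, Dsp, Pkp3 and Jup), and the share of all genes lowest there was not counted. For Dsg2 and Dsg3 it held 55 and 47 reads, beside 56 and 47 in B MYC, a difference within counting error.

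**Figure D5:**
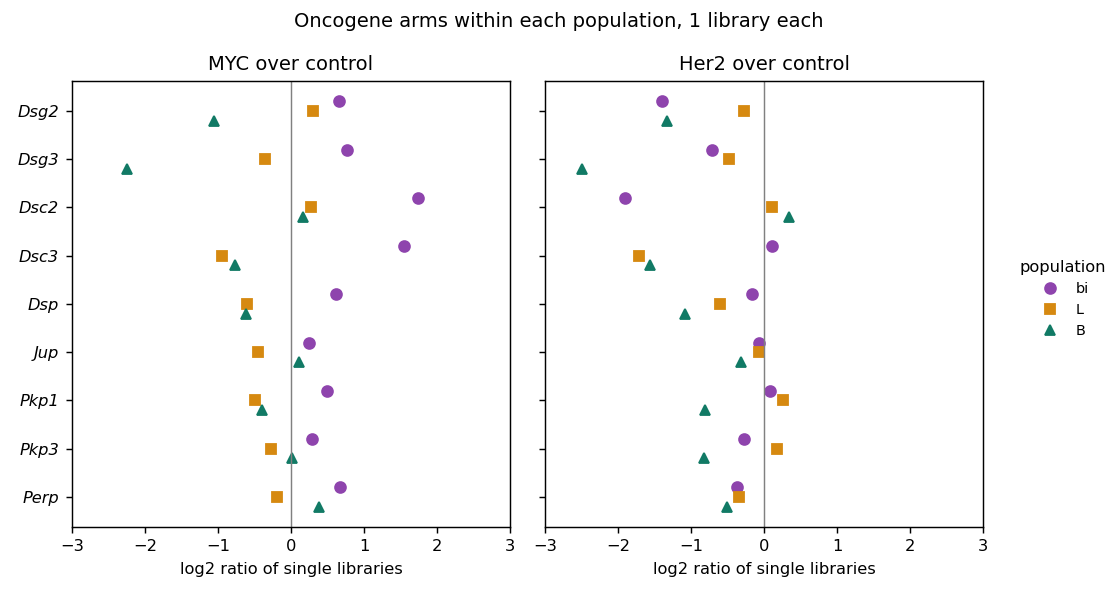
Log2 ratios of single libraries, MYC over control (left) and Her2 over control (right), for each desmosome gene in bi (circle), L (square) and B (triangle), with no error bars because each point rests on 1 library per arm. In bi all 9 MYC ratios are above 0 (0.25 to 1.74), while 7 of 9 in L and 5 of 9 in B are below 0. The median MYC ratios over all genes tested, not drawn, were 0.06 in bi, 0.04 in L and -0.03 in B.

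Between the oncogenes, no member was called in MYC against Her2 by edgeR, where 4.57% of all genes were called. DESeq2 called 1 of 9 members, Dsg2 (adjusted p = 0.0477), near its share of 8.96% over all genes, and 4 of 9 had an unadjusted p under 0.05 by edgeR, beside 19.1% of all genes. All 9 estimates were above 0, where 51.5% of all genes were, though that of Pkp1 was 0.02 and lay between -0.28 and -0.01 in 9 alternative fits. Perp had 485, 324 and 471 CPM in the MYC libraries of bi, L and B, against 267, 230 and 274 CPM in the Her2 libraries, with no overlap (log2 0.71 ± 0.21 SE, adjusted p = 0.0894). Perp was called in 3 alternative fits, under upper-quartile scaling, under scaling to library totals and without the L MYC library (adjusted p = 0.0308 to 0.0472). The 3 arm comparisons share libraries and are not independent of each other.

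Most other genes of the same junction were called higher in L and bi than in B, several of them near 0 in B. Of 10 further desmosome and plaque genes, 9 were tested, and in L against B 8 were called higher and 1 lower, beside 20.8% of all genes called. In bi against B, 7 of 9 were called higher and none lower, beside 13% of all genes, and in bi against L none was called. The higher ones include Dsg1a, Dsg1b, Dsg1c and Dsg4, which had enough reads to be tested because of bi and L. Their calls are no separate support for a low level in B. Apart from them, Evpl, Ppl, Pkp2 and Pkp4 were called higher in L against B, and Evpl, Ppl and Pkp4 in bi against B. The call of Pkp4 in bi against B was lost in 8 of 19 alternative fits. The list's median fell on a gene near 0 in B and is not given. Ppl and Evpl, plakins that bind keratin and build the cornified envelope in skin, averaged 44.5 and 55.4 CPM in bi, 67.1 and 58.6 CPM in L, and 2.09 and 5.14 CPM in B. Both were called in L against B (log2 5.02 ± 0.45 and 3.45 ± 0.27 SE, adjusted p = 6.34e-05 and 2.73e-05) and in bi against B (log2 4.42 ± 0.44 and 3.46 ± 0.27 SE, adjusted p = 0.000203 and 4.65e-05). Pkp2, the plakophilin of simple epithelia and heart, averaged 29.2 CPM in L and 10 CPM in B (log2 1.51 ± 0.23 SE, adjusted p = 0.00149). Cdsn, corneodesmosin, went the other way, at 0.808, 1.49 and 0.345 CPM in the MYC, Her2 and control libraries of L against 9.38, 54.1 and 1 CPM in B, ranges that overlapped (log2 -3.84 ± 0.95 SE, adjusted p = 0.0179), and 5 of 19 alternative fits lost this call.

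The counts of the lists that follow stand beside 20.8% of all genes called in L against B and 13% in bi against B, and their medians beside 0.04 and 0.03 over all genes. Some listed genes had too few reads in B for the read filter and were tested because of bi and L. Calls of such genes are no separate support for a low level in B. Among 11 adherens junction genes, 4 were called higher and 1 lower in L than in B, with a median log2 fold change of 0.42, and 2 were called higher in bi than in B, with a median of 0.09. Cdh1 had 305, 219 and 251 CPM in the MYC, Her2 and control libraries of bi, 491, 581 and 373 CPM in L, and 0.509, 0.485 and 2.12 CPM in B. Cdh1, like Dsg2 and Dsg3, was near 0 in B and highest there in the control library (log2 8.99 ± 0.61 SE in L against B, adjusted p = 1.32e-05). Ctnnb1, beta-catenin, the close relative of plakoglobin, averaged 867 CPM in bi, 962 CPM in L and 472 CPM in B, and was called in L against B (log2 1.01 ± 0.19 SE, adjusted p = 0.00504) and in bi against B (log2 0.88 ± 0.19 SE, adjusted p = 0.0156), a call that 6 of 19 alternative fits lost in bi against B. Cdh3, the P-cadherin gene, averaged 172 CPM in bi, 132 CPM in L and 183 CPM in B and was not called in either comparison with B.

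Of 11 keratins, the filaments that desmosomes anchor, 5 were called higher in L than in B, 6 were called higher in bi than in B, and none was called lower in either, with medians of 1.26 and 2.02. The simple keratin Krt18 had 76.5, 73.5 and 44.1 CPM in the MYC, Her2 and control libraries of bi, 287, 767 and 136 CPM in L, and 1.04, 4.32 and 2.48 CPM in B. The basal keratin Krt5 averaged 2031 CPM in bi, 1333 CPM in L and 1098 CPM in B and was not called. Krt8 and Krt7 were lower in bi than in L (log2 -3.66 ± 0.61 and -3.62 ± 0.68 SE, adjusted p = 0.033 and 0.0498), calls lost in 8 and 11 of 19 alternative fits. Of 13 tight junction and polarity genes, 11 were called higher in L than in B and 11 in bi than in B, with medians of 6.75 and 4.32. Epcam, which the sort selected on, was among them. Krt8 and Cldn4, at most 0.0926 and 0.13 CPM in B, were tested because of bi and L, as were others of these lists. The calls and medians of keratins and tight junction genes thus rest partly on such genes. The tight junction genes Cldn7 and Marveld3 were lower in bi than in L (log2 -2.72 ± 0.51 and -1.94 ± 0.32 SE, adjusted p = 0.0492 and 0.0326), calls lost in 11 and 10 of 19 alternative fits. Of 9 hemidesmosome genes, which attach cells to the basement membrane, 2 were called higher and 1 lower in L than in B, with a median of -0.09, and 4 were called higher in bi than in B, with a median of 0.22. Lamb3, a laminin chain gene, had the largest rise among them (log2 2.54 ± 0.28 SE in L against B, adjusted p = 0.000213).

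Transcription factors linked to epithelial junction genes were called in both directions. Of 17, 7 were called higher and 6 lower in L than in B, and 8 higher and 3 lower in bi than in B, with medians of 0.60 and 0.76. Grhl2, an activator of epithelial junction genes, had 105, 60.8 and 78.4 CPM in the MYC, Her2 and control libraries of bi, 136, 93 and 111 CPM in L, and 1.3, 1.76 and 1.56 CPM in B (log2 6.14 ± 0.28 SE in L against B, adjusted p = 1.48e-06). Zeb1, a repressor of E-cadherin, had 13.1, 15.7 and 14.2 CPM in bi, 1.92, 3.92 and 3.06 CPM in L, and 51.3, 61.7 and 59 CPM in B. Zeb1 was the reverse of Grhl2 in the order of populations, with bi between L and B, and it was called lower in L than in B (log2 -4.32 ± 0.28 SE, adjusted p = 1e-05), lower in bi than in B (log2 -1.99 ± 0.25 SE, adjusted p = 0.000856) and higher in bi than in L (log2 2.33 ± 0.26 SE, adjusted p = 0.00937). Trp63, the gene of the basal regulator p63, averaged 429 CPM in bi, 239 CPM in L and 587 CPM in B and was called lower in L than in B (log2 -1.41 ± 0.29 SE, adjusted p = 0.00739), a call lost in 2 of 19 alternative fits.

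Of 10 genes of desmosome turnover and signalling, 9 were tested, and in L against B 3 were called higher and 3 lower, with a median of -0.23. In bi against B 3 were called higher and none lower, with a median of 0.03. The higher ones included the kallikrein proteases Klk6 and Klk7. Both had too few reads in B for the read filter and were tested because of bi and L. Their calls are thus no separate support for a low level in B. Klk6 had 8.03, 499 and 12.1 CPM in the MYC, Her2 and control libraries of L, against 0, 0 and 0.037 CPM in B, and Klk7 had 0.418, 5.22 and 0.451 CPM in L against 0, 0.0194 and 0.037 CPM in B, so that the L Her2 library was far above the other two for both. The lower ones included Prkca, protein kinase C alpha (log2 -0.90 ± 0.25 SE, adjusted p = 0.0322), and Egfr (log2 -0.73 ± 0.18 SE, adjusted p = 0.0195), whose ranges overlapped. These calls were lost in 8 and 10 of 19 alternative fits. In MYC against control none of the genes in these lists was called. In Her2 against control the epithelial factor Ehf alone was called, at a mean of 65.2 CPM in Her2 libraries against 183 CPM in controls (log2 -1.53 ± 0.17 SE, adjusted p = 0.0485), a call lost in 10 of 19 alternative fits. In MYC against Her2, Ehf (log2 2.32 ± 0.17 SE, adjusted p = 0.000402), the tight junction gene Tjp3 (3.05 ± 0.56, adjusted p = 0.0192) and Egfr (1.10 ± 0.19, adjusted p = 0.0139) were called higher, and Cdh2, the N-cadherin gene (-2.55 ± 0.44, adjusted p = 0.0151), and Twist2 (-1.73 ± 0.34, adjusted p = 0.0235) lower. Of 19 alternative fits, 1 lost the call of Ehf, 7 that of Tjp3, 7 that of Egfr, 3 that of Cdh2 and 6 that of Twist2.

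Each member's nearest other member across the 9 libraries was taken by Pearson correlation of log2 CPM. The correlations are a description, since the libraries share populations and arms. Dsg2 lay nearest to Dsc2 (r = 0.98), Dsg3 to Dsg2 (r = 0.97), Jup and Pkp3 to each other (r = 0.87), and Dsc3 and Dsp to each other (r = 0.85). Pkp1 and Perp were nearest to Dsc3 (r = 0.75 and 0.70). Dsc2 and Dsc3 did not follow each other (r = -0.13). Averaged over the 9 members, each scaled to its own mean and SD, the profile was highest in bi MYC (1.28 SD) and lowest in B Her2 (-1.30 SD). Of 10154 genes with a mean of at least 5 CPM, the 8 whose profiles were most like it were Hr (r = 0.957), Zfp185 (0.952), Krt17 (0.934), Foxq1 (0.930), Alox12 (0.922), Mylip (0.911), Gprc5b (0.910) and Trip11 (0.909). Krt17, a stress and basal keratin, averaged 856 CPM in bi, 390 CPM in L and 229 CPM in B.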

How the data were processed

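Stranded, rRNA-depleted total RNA libraries were made per the labels' protocols, although the molecule label reads polyA RNA. Per the submitters' processing notes, reads were quantified with Salmon 0.9.1 for mm10, with the annotation release not given in the sources used here. Per the file headers, each deposited file holds a length, a TPM value and an estimated count of reads per gene, made by the authors before deposit. Symbols came from GENCODE M21, matching 53544 gene IDs with version and 563 without, and 174 had none.

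The expected counts were rounded and genes filtered with filterByExpr (minimum count 10, total 15). They were scaled by TMM and fitted with edgeR 4.0.16 (quasi-likelihood, R 4.3.3) as population plus arm over all 9 libraries. The 4 residual degrees of freedom hold the interaction and library noise together. Every population contrast thus averages over arms. CPM divides by the library total. Log2 ratios of single libraries use log2 TMM-scaled CPM and carry no test. A prior count of 2 reads on average, scaled to library size, was added to the reads before that step. Depth of 46.9 M to 98.9 M reads makes counting error small beside library spread for most members. Exceptions are Dsc2 in B, and Dsg2 and Dsg3 between the MYC and Her2 libraries of B. Among the further genes, Dsg1a, Dsg1c and Dsg4 in B are exceptions too.

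Alternatives were DESeq2 1.42.0, other scalings, no filter, limma 3.58.1 on log2 TPM with a pseudocount of 0.5 or 0.1, a fit without arm (population contrasts) or without population (arm contrasts), and leaving out each library, arm or population. The members and gene lists were chosen with earlier results of these data known. Named genes are all members, up to 2 of the largest rises and falls called per list and comparison, and the 8 genes nearest to the mean member profile. Evpl, Ppl, Pkp2, Pkp4, Cdh3, Krt5, Trp63, Dsg1c and Dsg4 were added after their values were seen, as were the basal and myoepithelial markers Krt14, Acta2, Myh11, Cnn1 and Tagln. The rule sets which genes may be named; some of them stand only in the counts, and 1 gene is not reported here. Annotated genes that overlap Dsg2, Dsp and Pkp1 reached at most 0.28, 2.74 and 6.16 CPM.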

Additional observations from a re-analysis of the deposited data

How the results depend on the processing

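The calls of Dsg2, Dsg3 and Dsc2 in L against B and in bi against B held under every alternative run. Among members, the other call, that of Jup in bi against B was lost in 9 alternatives, each of which left out a library or an arm (log2 0.69 to 0.91), and the cause was not tested. The count of members called in L against B was 3 and became 5 with no filter on low counts and 3 to 4 when single libraries were left out. In bi against B it was 4 and was 3 to 5 over all alternatives. In bi against L it was 0 and became 2 by DESeq2, 3 with no filter, 1 with the control arm left out, 2 with the MYC arm left out and 0 to 1 when single libraries were left out. In Her2 against control it was 0 and became 2 with no filter, 1 without the bi population and 0 to 1 without single libraries. In MYC against Her2 it was 0 and became 1 by DESeq2, under upper-quartile scaling and under library totals, 2 with no filter, and 0 to 1 without single libraries. Fits of the compared factor alone, with no replicate block for the other factor, gave 3, 4, 0, 0, 0 and 0 members called in L against B, bi against B, bi against L, MYC against control, Her2 against control and MYC against Her2, the counts of the fit with it. The number of all genes called moved more, from 2820 to 5574 in L against B, 1430 to 3796 in bi against B, 2 to 698 in bi against L, 4 to 966 in MYC against control, 0 to 619 in Her2 against control and 6 to 2089 in MYC against Her2.

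No called value changed sign. Among uncalled values in MYC against control, Pkp3 became -0.00194 with no filter and -0.16 in both limma fits, and Dsg2 became -0.10 in limma with the smaller pseudocount. With population left out of the fit, Dsg3 became 0.28, Dsc3 0.31 and Jup 0.00203. Without the B population Dsg3 became 0.21, Dsc3 0.17, Pkp1 0.00128 and Pkp3 -0.00484. Without L, Dsc3 became 0.32, Pkp1 0.03, Dsg2 -0.05 and Jup 0.18, and without bi Pkp3 became -0.11 and Dsg2 -0.35. In MYC against Her2, Pkp1 became -0.04 with no filter and in both limma fits, -0.23 without B and -0.20 without bi, and Jup became -0.10 and Pkp3 -0.02 without B. In Her2 against control, Pkp1 became 0.23 and Pkp3 0.02 without B, and Dsc2 became 0.18 without bi. Dsp in L against B became -0.09 without the Her2 arm, and in bi against L Pkp3, Dsg3 and Perp became -0.22, -0.23 and -0.03 without the MYC arm.

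Leaving out 1 library at a time gave ranges that crossed 0 for Dsp in L against B (-0.06 to 0.30), Pkp1 in bi against B (-0.06 to 0.43) and, in bi against L, Pkp3 (-0.22 to 0.36) and Dsg3 (-0.34 to 0.66). In MYC against control they did for Dsg2 (-0.45 to 0.42), Dsg3 (-1.18 to 0.15), Dsc2 (-0.19 to 1.60), Dsc3 (-0.75 to 0.25), Pkp1 (-0.37 to 0.13), Pkp3 (-0.11 to 0.27) and Jup (-0.13 to 0.20). In Her2 against control they did for Pkp1 (-0.41 to 0.12) and Dsc2 (-1.45 to 0.47), and in MYC against Her2 for Pkp1 (-0.28 to 0.30), Dsg3 (-0.01 to 1.08) and Jup (-0.01 to 0.35). The labels give no replicate numbers, so no pairing beyond the blocks of arm and population was possible. Depth limits Dsc2 in B, with 8 to 11 reads per library, and Dsg2 and Dsg3 in B MYC and B Her2, with 47 to 56 reads.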
